A study of Mus musculus with 16 samples.

Results

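The subunits of oxidative phosphorylation were followed in chimeric mouse embryos through 106 of the 29453 genes counted. Members were taken by symbol alone: the mitochondrially encoded *mt-Nd*, *mt-Co*, *mt-Cytb* and *mt-Atp* genes, and the nuclear genes whose symbols begin with *Ndufa*, *Ndufb*, *Ndufc*, *Ndufs*, *Ndufv*, *Uqcr*, *Cox4* to *Cox8* or *Atp5*, with *Sdha*, *Sdhb*, *Sdhc* and *Sdhd*. No measured value entered that rule, though it was set with earlier results of these data known. Of the 106, 13 are encoded by the mitochondrial genome, 7 of them for complex I, 1 for complex III, 3 for complex IV and 2 for complex V. The other 93 are nuclear: 36 for complex I, 4 for complex II, 8 for complex III, 20 for complex IV, 15 for complex V and 10 assembly and related factors that share the prefixes. The mitochondrial and nuclear members were kept apart throughout.

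Oxidative phosphorylation couples the oxidation of NADH and succinate to the synthesis of ATP in the inner mitochondrial membrane. Complex I (NADH dehydrogenase) and complex II (succinate dehydrogenase) pass electrons to ubiquinone, complex III (cytochrome bc1) passes them on to cytochrome c, complex IV (cytochrome c oxidase) reduces oxygen, and complex V (ATP synthase) uses the resulting proton gradient. Most subunits are nuclear and imported, whereas the mitochondrial genome encodes a hydrophobic core of complexes I, III, IV and V and none of complex II. Several nuclear subunits of complex IV exist as alternative isoforms, among them COX6A2, COX7A1 and COX8B of heart and skeletal muscle, and the heart is among the tissues with the highest demand on this pathway.

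Embryonic stem cells of the CD1 background that carried tdTomato and lacked *Stat3*, whose coding exons had been replaced in part by a neomycin cassette, were injected into wild-type (WT) CD1 blastocysts. Chimeras were collected on embryonic days 7.5, 8.5 and 9.5 (E7.5, E8.5 and E9.5), dissociated and sorted by tdTomato into null cells and WT cells of the host. Of 16 libraries of single-cell RNA, 4 were of E7.5, 4 of E8.5 and 8 of E9.5, shared equally between null and WT. Null and WT cells thus grew in the same embryos, and the WT libraries also held extra-embryonic tissues to which injected stem cells add few cells. E7.5 and E8.5 embryos were pooled before sorting, and a pair of E9.5 embryos was processed singly, fewer than the E9.5 libraries of a genotype, so n counts libraries and the spread between them may be technical in part. Within a group the libraries bear the letters A to D, which pair nothing.

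Once doublets and host-sorted cells carrying a tdTomato molecule had been removed, 37841 cells of 87 transferred cell types remained, with 360 to 4327 cells and 20682659 to 138613245 unique molecular identifiers (UMIs, each a counted RNA molecule) per library. *Stat3* reached 6.14 to 9.31 CPM (UMIs per 1000000 UMIs) in WT and 1.16 to 2.53 in null libraries, with no overlap. The E9.5 WT libraries C and D shared 292 cell barcodes, which were 15.3% of the cells of C and 7.39% of those of D, while the other 119 pairs of libraries shared 0 to 8. Only 10 of the 292 shared barcodes carried the same cell type in both libraries. For calls within cell types at E9.5, the number without the shared cells is also given. Erythroid markers summed to 5716 to 17805 CPM in E9.5 WT and 258 to 682 CPM in E9.5 null libraries, and visceral and extra-embryonic endoderm markers to 359 to 454 CPM in E7.5 WT and 2.08 to 4.90 CPM in E7.5 null libraries. In values summed over a whole library, fewer cells of a type and less RNA per cell cannot be told apart.

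Together the nuclear members gave 67.1% and the mitochondrially encoded members 32.9% of all member UMIs. Since the assay counts the ends of molecules, a long and a short transcript each count as a molecule, and shares of UMIs are shares of molecules captured. Nuclear subunits of complex V made up 21.0% of member UMIs, those of complex I 18.7%, those of complex IV 18.6%, those of complex III 6.61% and those of complex II 1.17%, with 1.05% from the assembly and related factors. Of the mitochondrially encoded members, the 3 subunits of complex IV alone gave 14.1%, the 7 of complex I 8.94%, the 2 of complex V 5.06% and *mt-Cytb*, the one for complex III, 4.75%. The most abundant member was *mt-Co2* at 2060 CPM over all libraries, rank 89 of all genes, and the most abundant nuclear member was *Cox7c*, a small subunit of complex IV, at 1005 CPM. At the other end, the muscle isoform *Cox8b* had 19 UMIs and the testis isoform *Cox8c* had 10 UMIs in all libraries together, and neither passed the filter on low counts.

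Isoform families were dominated by the ubiquitous form in whole WT libraries. The hypoxia-responsive *Cox4i2* gave 1.87% ± 0.126 of the *Cox4* UMIs at E7.5, 1.97% ± 0.200 at E8.5 (SD, n = 2 each) and 0.985% ± 0.137 at E9.5 (SD, n = 4). *Cox6b2*, known as the testis form of *Cox6b*, gave 3.86% ± 0.0150, 4.00% ± 1.14 and 3.79% ± 0.639 of the *Cox6b* UMIs. *Ndufa4l2*, the paralogue of the complex IV subunit *Ndufa4*, gave 4.26% ± 2.46, 1.21% ± 0.181 and 0.539% ± 0.0956 of their joint UMIs. The proteolipid c of ATP synthase is made from 3 genes with 1 mature product, and here *Atp5g1*, *Atp5g2* and *Atp5g3* gave 39.1%, 44.7% and 16.2% of their joint UMIs at E7.5 and 34.7%, 45.2% and 20.1% at E9.5.

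Promoters of 4 ubiquitous and tissue forms of complex IV subunits are shown, because levels of these isoforms are compared between cell types below. That of *Cox6a2* is not shown. The sequences run from 250 bases before to 50 after the annotated start, from RefSeq on GRCm38.p6, and are given on the strand of the gene. Capitals mark matches on either strand to the motif letters of NRF1 (GCGCANGCG), of the ETS family (CCGGAAG), of YY1 (ATGGCG) or of the GATA factors (AGATAA), where N is any base. *Cox6a1* lies at chr5:115348909-115349208 on the minus strand, *Cox6b1* at chr7:30626065-30626364 on the minus strand, *Cox6b2* at chr7:4753045-4753344 on the minus strand and *Cox7a1* at chr7:30183921-30184220 on the plus strand.
Cox6a1: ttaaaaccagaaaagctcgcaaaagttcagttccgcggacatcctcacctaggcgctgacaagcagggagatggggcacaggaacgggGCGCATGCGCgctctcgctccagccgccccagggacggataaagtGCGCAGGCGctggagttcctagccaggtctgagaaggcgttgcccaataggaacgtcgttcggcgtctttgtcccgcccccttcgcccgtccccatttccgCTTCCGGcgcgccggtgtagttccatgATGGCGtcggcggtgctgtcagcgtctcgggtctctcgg
Cox6b1: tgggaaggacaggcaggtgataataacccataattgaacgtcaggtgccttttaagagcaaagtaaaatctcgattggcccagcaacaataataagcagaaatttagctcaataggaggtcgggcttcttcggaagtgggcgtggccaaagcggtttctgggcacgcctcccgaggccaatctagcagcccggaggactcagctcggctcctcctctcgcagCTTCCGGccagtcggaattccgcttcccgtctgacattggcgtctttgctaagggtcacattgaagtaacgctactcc
Cox6b2: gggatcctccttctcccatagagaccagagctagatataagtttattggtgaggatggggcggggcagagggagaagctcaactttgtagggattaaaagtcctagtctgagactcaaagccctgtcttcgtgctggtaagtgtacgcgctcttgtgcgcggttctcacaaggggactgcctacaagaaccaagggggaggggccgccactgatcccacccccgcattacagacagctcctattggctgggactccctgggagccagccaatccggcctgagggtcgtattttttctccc
Cox7a1: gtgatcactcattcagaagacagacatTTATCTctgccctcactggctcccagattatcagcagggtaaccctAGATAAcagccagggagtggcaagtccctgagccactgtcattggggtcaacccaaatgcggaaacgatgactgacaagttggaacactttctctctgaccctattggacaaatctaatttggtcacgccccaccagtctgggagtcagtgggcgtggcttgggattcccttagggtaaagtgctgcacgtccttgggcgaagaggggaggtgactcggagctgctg
In *Cox6a1* the capitals mark 3 NRF1 matches, the first 2 of which overlap as a palindrome, then an ETS match and a YY1 match just after the start. *Cox6b1* held 1 ETS match and *Cox7a1* held 2 GATA matches, whereas the window of *Cox6b2* held none of these letters. A promoter was given for 74 of the 106 members. NRF1 letters were in 28.4% of those 74 and in 6.47% of all 27025 promoters of the same length, ETS letters in 23.0% and 9.12%, and YY1 letters in 27.0% and 9.24%. GATA letters were in 8.11% of the members' promoters and 11.4% of all, and the letters TTCNNNGAA, to which STAT factors bind, in 5.41% and 8.47%. A match is a run of letters and not a measured binding site.

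The summed level of the nuclear members differed little between libraries. At E7.5 it was 2.58% and 2.63% of all UMIs in the WT libraries and 2.56% and 2.66% in the null libraries. At E8.5 it was 2.62% and 2.70% in WT and 2.66% and 2.80% in null libraries. At E9.5 the WT libraries had 2.45%, 2.44%, 2.48% and 2.52%, and the null libraries 2.50%, 2.49%, 2.61% and 2.50%. Null and WT libraries overlapped at each stage, and the differences of the means, null minus WT, of 0.00526, 0.0672 and 0.0552 percentage points stood against pooled SDs of 0.0570, 0.0807 and 0.0467. Without 1 library they ranged from -0.0461 to 0.0567, from -0.00327 to 0.138 and from 0.0267 to 0.0700 points, and the sign turned without the E7.5 WT library A or null library B and without the E8.5 null library B. Averaged over the cell types with more than 15 cells in every library of the stage, the differences were 0.0332, 0.0740 and 0.0498 points over 7, 20 and 20 types.

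The mitochondrially encoded members varied more between libraries of a group. WT and null libraries had 1.86% and 1.42% against 1.33% and 1.44% at E7.5, and 0.996% and 1.16% against 1.15% and 0.919% at E8.5. At E9.5 the WT libraries had 1.29%, 1.61%, 1.37% and 1.20%, and the null libraries 1.24%, 1.34%, 1.08% and 1.06%. The groups overlapped at all 3 stages. Null minus WT was -0.252, -0.0456 and -0.186 points, with pooled SDs of 0.224, 0.141 and 0.157, and averaged over the same cell types -0.140, -0.0548 and -0.195. Without 1 library these differences ranged from -0.469 (E7.5 WT B left out) to -0.0353 (E7.5 WT A), from -0.159 (E8.5 null A) to 0.0682 (E8.5 null B) and from -0.243 (E9.5 WT D) to -0.105 (E9.5 WT B), and at E8.5 the sign turned without WT library B too. Cells above 5% mitochondrial UMIs had been removed by the authors and the highest share left in any cell was 4.99%, so these sums have a ceiling set per cell.

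**Figure D1:**
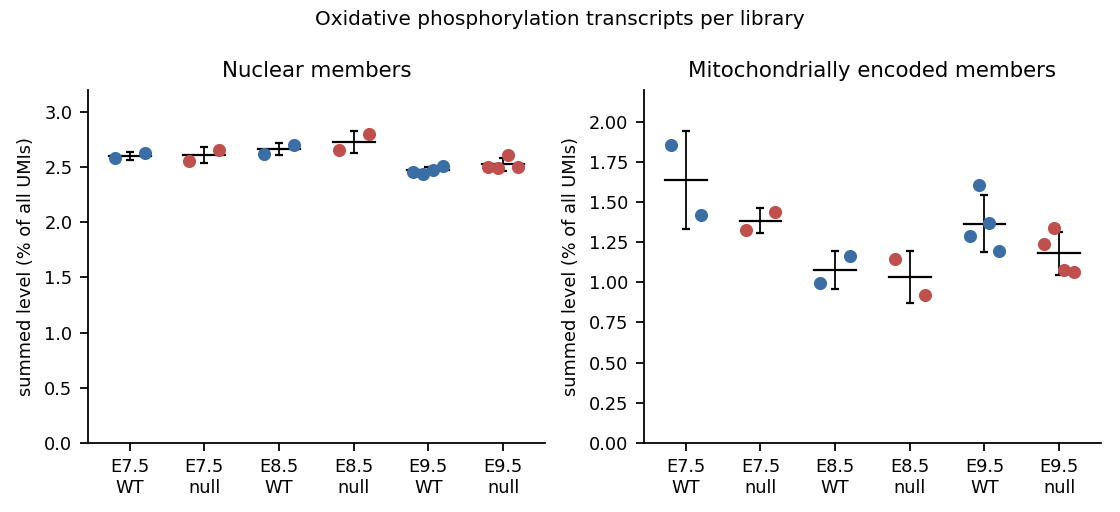
Summed level of the nuclear and of the mitochondrially encoded members, in percent of all UMIs, with a point per library, coloured by genotype, and bars for the mean and SD of each stage and genotype. Nuclear sums lay between 2.44% and 2.80% in all 16 libraries, mitochondrial sums between 0.919% and 1.86%, and null and WT points overlapped at each stage.

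Over whole libraries, 104 members were among the 15591 genes tested with edgeR's quasi-likelihood test, and Benjamini-Hochberg adjusted p-values run over all of them. Between null and WT, 1 member changed at E7.5, 0 at E8.5 and 0 at E9.5, beside 5.32%, 0.218% and 1.33% of all genes called at those stages. At an unadjusted p under 0.05 there were 13, 5 and 16 members, beside 18.2%, 5.25% and 9.08% of all genes, and DESeq2 called 3, 0 and 1, beside 7.10%, 0.693% and 2.48%. The median log2 fold change of the nuclear members was 0.04, 0.01 and 0.03 and that of the mitochondrially encoded members -0.13, -0.13 and -0.22, against 0.01, 0.00 and 0.00 over all genes tested. At E9.5 all 13 mitochondrially encoded members had estimates below 0, from -0.38 to -0.12, and none passed the test.

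The member called at E7.5 was *Ndufaf4*, an assembly factor of complex I, which was measured at 123 and 117 CPM in WT and 139 and 138 CPM in null libraries. Within cell types at E7.5 *Ndufaf4* was higher in null cells in 7 of 7, with a median log2 fold change of 0.12. It had an unadjusted edgeR p under 0.05 in 0 of them and was called in 0. Over whole libraries the null libraries lay above the WT libraries, by a log2 fold change of 0.26 (SE 0.06, 95% interval 0.13 to 0.39, edgeR adjusted p = 0.0239). Leaving out any of the 4 E7.5 libraries ended that call, with adjusted p-values from 0.0779 to 0.0965. The log2 fold change of *Ndufaf4* was -0.12 at E8.5 and 0.10 at E9.5, neither called by edgeR (adjusted p = 1 and 0.515). The E8.5 difference minus the E7.5 difference was -0.38 (SE 0.09, 95% interval -0.57 to -0.19, edgeR adjusted p = 0.0467), the 1 interaction called among members beside 1.42% of all genes. It was no longer called in 14 of the 16 fits that each left out 1 library. Between E9.5 and E8.5 no member had an interaction, beside 0.0321% of all genes.

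Of 39 further assembly factors, from a list outside the symbol rule, 38 were tested between null and WT. At E7.5 1 rose and 2 fell, and at E8.5 and E9.5 0 rose and 1 fell, beside the shares of all genes given above. *Lyrm7*, which acts in the maturation of complex III, fell in null libraries at E7.5 by 2.71 on the log2 scale (edgeR adjusted p = 0.000184) and at E8.5 by 2.02 (edgeR adjusted p = 0.00522). It was not called at E9.5. Of the 38 factors 0 had an interaction called between E8.5 and E7.5 or between E9.5 and E8.5, beside 1.42% and 0.0321% of all genes. A call at some stages only is therefore no shown difference between stages. At E7.5 *Cox15*, of the haem a pathway of complex IV, rose by 0.64 and *Cox14*, of complex IV assembly, fell by 0.28, and at E9.5 *Timmdc1*, of complex I assembly, fell by 0.51 (edgeR adjusted p = 0.00815, 0.0480 and 0.0110). Of 14 electron carriers and their makers, 13 tricarboxylic acid cycle genes and 12 regulators of mitochondrial biogenesis, none was called between null and WT at any of the 3 stages. For the mean of the 3 stage contrasts, a contrast added after the values were seen, 4 of the 38 assembly factors rose and 4 fell in null libraries, beside 1.67% and 3.08% of all genes. *Cox15* and Atpaf2, which acts in the assembly of the ATP synthase head, rose by 0.47 and 0.39, Atpaf1, of the same step, and Uqcc2, of complex III assembly, by 0.16 and 0.21, and *Lyrm7*, *Timmdc1*, Uqcc1 and Bcs1l fell by 1.62, 0.37, 0.16 and 0.15 (edgeR adjusted p from 3.06e-05 for *Lyrm7* to 0.0456 for Bcs1l). Of the electron carriers and their makers Coq5, an enzyme of ubiquinone synthesis, rose by 0.21 (edgeR adjusted p = 0.0173) for that mean, and none of the other 2 lists was called.

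*Cox6b2*, on chromosome 7 from 4751792 to 4753094 (GRCm38, minus strand), was the one member called by edgeR for the mean of the 3 stage contrasts. Both that contrast and this gene were chosen after the values were seen, and the adjusted p-values do not allow for that choice. *Cox6b2* was measured at 19.6 and 20.1 CPM in WT and 15.4 and 12.9 CPM in null libraries at E7.5. At E8.5 it was 28.7 and 19.3 CPM in WT and 17.9 and 11.4 CPM in null libraries. At E9.5 the WT libraries had 23.0, 17.3, 17.1 and 21.9 CPM, and the null libraries 12.5, 13.0, 14.0 and 12.6 CPM. No null library reached the level of a WT library of the same stage, though the share of all genes that separate in this way is not given here. The log2 fold changes of -0.44, -0.71 and -0.61 did not pass the test singly (edgeR adjusted p = 0.350, 0.506 and 0.0918), and their mean was -0.59 (SE 0.12, 95% interval -0.84 to -0.33, edgeR adjusted p = 0.0142, beside 4.75% of all genes called for that contrast). DESeq2 called 8 members for it, beside 7.08% of all genes, and gave *Cox6b2* an adjusted p of 5.88e-05. Within cell types *Cox6b2* was lower in null cells in 7 of 7, 14 of 18 and 31 of 34 types at the 3 stages. An unadjusted edgeR p under 0.05 was found in 2, 5 and 15 types, of which 2, 5 and 14 were lower. It was called in 0 types at each stage.

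Erythroid cells differed in number between these libraries and held a part of this transcript. Cells labelled Erythroid held 62.2% and 49.1% of the *Cox6b2* UMIs of the E8.5 WT libraries and 53.4% and 32.7% of the E8.5 null libraries, 8.87% to 27.9% of the E9.5 WT libraries and 0.169% to 2.14% of the E9.5 null libraries. With those cells left out, *Cox6b2* was at 14.1 and 12.6 CPM in WT and 10.7 and 9.07 CPM in null libraries at E8.5. At E9.5 it was then at 17.5, 15.4, 15.9 and 18.1 CPM in WT and 12.2, 13.0, 14.0 and 12.4 CPM in null libraries. The groups still did not overlap at either stage. The differences were then -0.44, -0.42 and -0.36 (edgeR adjusted p = 0.0387, 0.393 and 0.0494), with a mean of -0.41 (SE 0.06, edgeR adjusted p = 0.00176).

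**Figure D2:**
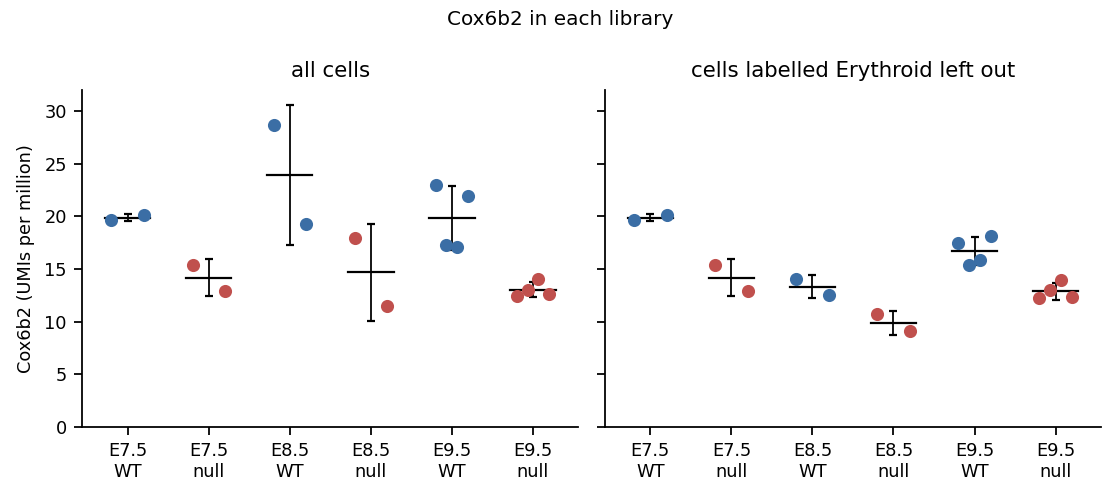
Level of *Cox6b2* in each library, in CPM, over all cells and with cells labelled Erythroid left out, by stage and genotype, with bars for the mean and SD. Over all cells the E9.5 WT libraries lie between 17.1 and 23.0 and the null libraries between 12.5 and 14.0, and without Erythroid cells between 15.4 and 18.1 and between 12.2 and 14.0.

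More members were called between stages than between genotypes. In WT cells 57 members differed between E8.5 and E7.5, 49 higher and 8 lower at E8.5, where 44.8% of all genes were called, 22.7% higher and 22.0% lower. The median log2 fold change was 0.22 for the nuclear and -0.29 for the mitochondrially encoded members, beside 0.01 for all genes. Between E9.5 and E8.5 the direction turned, with 73 members called, 1 higher and 72 lower at E9.5, where 40.3% of all genes were called, 22.7% higher and 17.6% lower. The medians were -0.34 and -0.10, beside 0.06 for all genes. When libraries were scaled to their total UMIs in place of TMM factors, the median of all genes shifted to -0.16 and 0.32, and 26 members were called higher and 23 lower at E8.5, beside 15.1% and 34.5% of all genes. At E9.5 15 were then higher and 36 lower, beside 47.9% and 6.48% of all genes.

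Erythroid cells were again part of the counts. Without them 29 members were called higher and 19 lower at E8.5, beside 23.1% and 22.0% of all genes, and the median over members was 0.03 beside 0.01 for all genes. At E9.5 5 were then called higher and 55 lower, beside 16.6% and 13.8% of all genes, with medians of -0.21 and 0.03. Only 2 cell types, Lateral plate mesoderm and Mesenchyme, had more than 15 cells in every WT library of E7.5 and E8.5, and over those 12 members rose and 5 fell, beside 10.2% and 7.94% of all genes. Over the 18 types shared in the same sense by E8.5 and E9.5, 1 rose and 77 fell, beside 27.4% and 18.3% of all genes. Of the members named below, *Sdhb*, *Uqcrc2*, *Atp5sl*, *mt-Nd6* and *mt-Co3* were not called at E8.5 over the 2 shared types, where their log2 fold changes were 0.19, 0.06, -0.46, 0.93 and -0.58 (edgeR adjusted p = 0.253, 0.802, 0.0992, 0.132 and 0.172). A stage may also share a day of preparation, and stage and preparation cannot be told apart.

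By complex, the rise at E8.5 was spread over the nuclear subunits of complex I, of which 23 of 36 rose and 0 fell, where 22.7% of all genes rose and 22.0% fell. In complex II 2 of 4 rose, in complex III 4 of 8, in complex IV 8 of 18 with 1 fall, and in complex V 7 of 15 with 2 falls. Of the 13 mitochondrially encoded members 2 rose and 3 fell, and of the 10 assembly and related factors 3 rose and 2 fell. At E9.5, 30 of 36 subunits of complex I fell, 7 of 8 of complex III, 16 of 18 of complex IV, 11 of 15 of complex V, 6 of 10 assembly and related factors and 2 of 13 mitochondrially encoded members, where 17.6% of all genes fell. In complex II none of the 4 subunits fell at E9.5, and *Sdha*, the flavoprotein subunit, was the 1 member that rose with TMM factors. Scaling to total UMIs moved the median of all genes by -0.17 at E8.5 and 0.26 at E9.5, so that 15.1% of all genes rose and 34.5% fell at E8.5, and 47.9% rose and 6.48% fell at E9.5. On that scale 12 subunits of complex I rose and 3 fell at E8.5, and 4 rose and 16 fell at E9.5. Of complex IV, 4 subunits rose and 5 fell at the first step, while 1 rose and 10 fell at the second. Of complex III these were 2 and 1, then 0 and 5, and of complex V 3 and 2, then 1 and 2. Of complex II 0 rose and 1 fell, then 3 rose and 0 fell, and of the assembly and related factors 3 rose and 4 fell, then 2 rose and 2 fell. Of the mitochondrially encoded members 2 rose and 7 fell, then 4 rose and 1 fell. A direction is therefore given relative to the other genes, and the few calls of the mitochondrially encoded members at E9.5 give none.
Without Erythroid cells 12 of 36 subunits of complex I rose and 1 fell at E8.5, beside 23.1% and 22.0% of all genes. Of complex II 2 rose and 1 fell, of complex III 1 and 1, of complex IV 5 and 3 and of complex V 4 and 3. Of the assembly and related factors 3 rose and 4 fell, and of the mitochondrially encoded members 2 rose and 6 fell. The rise at E8.5 thus depended largely on the Erythroid cells. At E9.5 25 of 36 subunits of complex I fell and 3 rose without them, beside 13.8% and 16.6%.

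CPM here and below are per total UMIs, whereas fold changes between stages use TMM factors, so they need not match. Scaling to total UMIs moved the median of all genes by -0.17 at E8.5 and 0.26 at E9.5. Among subunits of complexes I and II, *Ndufa1*, an accessory subunit of complex I encoded on the X chromosome, was at 82.6 and 82.1 CPM in the E7.5 WT libraries and at 125 and 116 CPM in the E8.5 WT libraries. The groups did not overlap, and it rose by 0.72 on the log2 scale (SE 0.14, edgeR adjusted p = 0.000992). *Sdhb*, the iron-sulphur subunit of complex II, went from 130 and 132 CPM to 140 and 148 CPM. With TMM factors it rose by 0.30 on the log2 scale (SE 0.06, edgeR adjusted p = 0.000703). It was not called when libraries were scaled to total UMIs either (edgeR adjusted p = 0.0835). *Ndufv3*, of the NADH-oxidising module of complex I, was at 173 and 167 CPM at E8.5 and at 134, 131, 131 and 142 CPM at E9.5. All 4 E9.5 libraries lay below both E8.5 libraries, and it fell by 0.60 (SE 0.06, edgeR adjusted p = 1.69e-05). *Sdha* went from 72.1 and 77.1 CPM to between 95.5 and 98.7 CPM. Its log2 fold change was 0.12 (SE 0.04, edgeR adjusted p = 0.0403), and the call was lost under DESeq2, without a filter, over all rows of the table, within the shared cell types and in 9 of the 16 fits without 1 library.

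In complex III, *Uqcrc2*, a core subunit, was at 140 and 125 CPM at E7.5 and 157 and 167 CPM at E8.5, and rose by 0.46 (SE 0.07, edgeR adjusted p = 0.000113) over all cells, though not over the 2 shared types. *Uqcrq*, a small subunit, was at 501 and 521 CPM at E8.5 and at 381, 358, 364 and 412 CPM at E9.5, and fell by 0.69 (SE 0.08, edgeR adjusted p = 4.00e-05). Neither pair of groups overlapped.

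Among the called nuclear-encoded subunits of complex IV, the largest stage changes were in *Cox6a2* and *Ndufa4l2*, which are tissue isoforms. *Cox6a2*, the striated muscle form of subunit 6A, had 0 UMIs in the E7.5 WT libraries and 264 UMIs in those of E8.5, which made it at least 45.4-fold higher over the group (3 counts taken as the limit of 0, edgeR adjusted p = 0.000848). Cardiomyocytes held 79 and 167 of those 264 UMIs, in WT libraries A and B. Cardiomyocyte markers summed to 81.9 to 90.9 CPM in E7.5, 388 to 728 CPM in E8.5 and 109 to 226 CPM in E9.5 WT libraries. Cell number and level per cell cannot be told apart here. *Cox6a2* was at 1.10 and 2.31 CPM at E8.5 and at 0.692, 0.147, 0.240 and 0.751 CPM at E9.5. Those groups did not overlap either, and it fell by 2.11 (SE 0.57, edgeR adjusted p = 0.0122), a call that ended without the E8.5 WT library B. *Ndufa4l2* was at 18.0 and 42.1 CPM at E7.5 and 7.19 and 8.77 CPM at E8.5, and changed by -1.77 on the log2 scale (SE 0.39, edgeR adjusted p = 0.00278). Without the E7.5 WT library B its fold change was -0.98 and it was not called. Between E9.5 and E8.5 *Cox4i2* fell by 1.45 and *Cox7a1* by 1.29 (edgeR adjusted p = 2.48e-05 and 0.000114), while *Cox7a2l*, a factor of supercomplex assembly, had a log2 fold change of 0.00. The log2 fold change of *Cox6b2* in WT libraries, E9.5 against E8.5, was -0.54 over all cells (edgeR adjusted p = 0.0358) and 0.16 without Erythroid cells (edgeR adjusted p = 0.215). For E8.5 against E7.5 it was 0.44 over all cells (edgeR adjusted p = 0.123) and -0.52 without Erythroid cells (edgeR adjusted p = 0.00198).

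In complex V, *Atp5h*, of the peripheral stalk, was at 437 and 431 CPM at E7.5, 576 and 596 CPM at E8.5 and 526, 550, 525 and 531 CPM at E9.5, and its rise at E8.5 was 0.60 (SE 0.06, edgeR adjusted p = 4.16e-06). *Atp5c1*, the central stalk subunit gamma, went from 437 and 496 CPM to 347 and 371 CPM at E8.5, a change of -0.21 on the log2 scale (SE 0.07, edgeR adjusted p = 0.0239) that was not called without the E7.5 WT library B or the E8.5 WT library A. *Atp5g1* was at 717 and 819 CPM at E8.5 and at 620, 675, 596 and 661 CPM at E9.5. It fell by 0.53 (SE 0.07, edgeR adjusted p = 0.000114). Among the factors that assemble complex I, *Ndufaf2* went from 67.7 and 69.6 CPM at E7.5 to 107 and 109 CPM at E8.5 (log2 fold change 0.82, SE 0.20, edgeR adjusted p = 0.0050), and *Ndufaf4* fell by 0.58 at E9.5 (SE 0.05, edgeR adjusted p = 7.20e-06). *Atp5sl*, a gene named for its likeness to a subunit of ATP synthase, fell by 0.72 at E8.5 over all cells (SE 0.09, edgeR adjusted p = 4.12e-05).

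Of the mitochondrially encoded members, *mt-Nd6* and *mt-Co3* moved in opposite directions. *mt-Nd6*, the one member of the 13 on the minus strand of the mitochondrial genome, was at 24.8 and 27.5 CPM at E7.5, 44.5 and 49.3 CPM at E8.5 and 25.3, 31.6, 39.9 and 28.7 CPM at E9.5. Over all cells it rose by 1.01 at E8.5 (SE 0.23, edgeR adjusted p = 0.00396) and fell by 0.84 at E9.5 (SE 0.19, edgeR adjusted p = 0.00423), and the E8.5 libraries lay above all others. *mt-Co3*, a core subunit of complex IV on the plus strand, went from 3481 and 2555 CPM to 1514 and 1701 CPM and back to 2074, 2462, 2085 and 1974 CPM. It fell by 0.74 at E8.5 over all cells (SE 0.16, edgeR adjusted p = 0.00260). Neither was called at E8.5 over the shared types. The chemistry named for the libraries keeps the strand of each RNA.

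**Figure D3:**
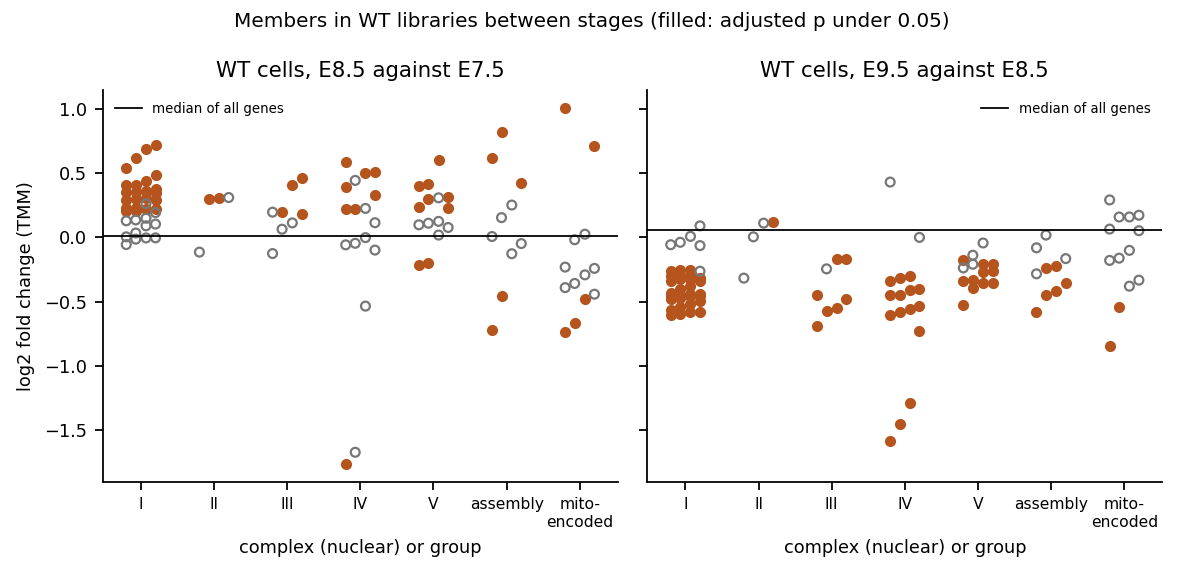
Log2 fold change of each tested member in WT cells, E8.5 against E7.5 and E9.5 against E8.5, grouped by complex, with filled points for an adjusted p under 0.05 and a line at the median of all genes. *Cox6a2* is left out of the plot, since it had 0 UMIs at E7.5. The nuclear subunits of complex I lie mostly above the line at E8.5, where 23 of 36 rose, and below it at E9.5, where 30 of 36 fell. Without Erythroid cells, a setting not plotted, 12 of 36 rose and 1 fell at E8.5, and 25 of 36 fell and 3 rose at E9.5.

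Of the genes around the chain in WT cells, 7 of the 38 tested assembly factors rose and 4 fell at E8.5, beside 22.7% and 22.0% of all genes, and 2 rose and 19 fell at E9.5, beside 22.7% and 17.6%. *Lyrm7* fell by 2.36 at E9.5 and the copper chaperone *Cox17* by 0.93 (edgeR adjusted p = 9.52e-06 and 0.000652). Of the 14 electron carriers and their makers 4 rose and 1 fell at E8.5, and 0 rose and 3 fell at E9.5, among them cytochrome c (*Cycs*), which fell by 0.42 (edgeR adjusted p = 0.000151). Of the 13 tricarboxylic acid cycle genes 6 rose and 2 fell at E8.5, and 1 rose and 8 fell at E9.5. Of the 12 regulators of mitochondrial biogenesis 2 rose and 5 fell at E8.5, and 2 rose and 4 fell at E9.5. With total-UMI scaling, which moved all genes by the amounts given above, 3 assembly factors rose and 12 fell at E8.5 and 10 rose and 5 fell at E9.5, and the balance of calls of the carriers, of the tricarboxylic acid cycle genes and, at E9.5, of the regulators moved likewise. With TMM factors but without Erythroid cells, 5 assembly factors rose and 8 fell, 3 carriers rose and 3 fell, and 2 tricarboxylic acid cycle genes rose and 3 fell at E8.5. At E9.5 the same 3 counts were 2 and 15, 3 and 1, and 1 and 1. No direction is therefore given for these lists, other than the larger number of falls among the assembly factors at E9.5 with TMM factors.

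Within cell types, null and WT cells were compared on UMIs summed per library and type, wherever 2 or more libraries per genotype held over 15 cells of a type. At E7.5, 0 of 707 tests of members over 7 types passed the threshold, while DESeq2 called 0. At E8.5, 1 of 1993 tests over 20 types passed, and at E9.5, 7 of 3663 tests over 37 types. Over all genes tested in these types, 0.231%, 0.0867% and 0.270% passed. None of the member calls had an absolute log2 fold change over 1, a further rule that 0.175%, 0.0560% and 0.120% of all gene tests met. An unadjusted p under 0.05 was found in 30, 103 and 369 tests of members at the 3 stages, which were 4.24%, 5.17% and 10.1% of them, beside 4.04%, 4.30% and 6.25% of all gene tests. At E9.5 those 369 were 191 higher and 85 lower in null cells of 3182 tests of nuclear members, and 4 higher and 89 lower of 481 tests of mitochondrially encoded members. Among the members, *Cox5b*, of complex IV, and *Ndufa13*, of complex I, both chosen here after their values were seen, were lower in null cells in 37 of 37 types at E9.5, with an unadjusted p under 0.05 in 24 and 9 types and no call. *Ndufa5*, *Atp5l*, *Ndufa4* and *Atp5e*, chosen likewise, were higher in null cells in 36 of 37 types at E9.5. They had that p in 15, 13, 10 and 8 types, and *Ndufa5* was called in 1. At E7.5 *Cox5b* was lower in 7 of 7 types (2 at that p) and *Ndufa13* in 6 of 7 (0), and at E8.5 they were lower in 15 of 20 (0) and 18 of 20 types (6). Types of a library share its preparation and are not independent. With the cells of shared barcodes left out, 9 members were called at E9.5. The median over the mitochondrially encoded members was below 0 in 6 of 7, 14 of 20 and 31 of 37 types, and that over the nuclear members in 0 of 7, 2 of 20 and 9 of 37 types.

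Of the 8 calls, 4 fell in the YS mesothelium at E9.5, where 3 WT libraries held 50, 56 and 144 cells and 3 null libraries 27, 16 and 27. The setting of more than 50 cells per library could therefore not be run for them. The 4 genes were measured in the same cells and are not independent. *mt-Cytb* was at 2771, 3236 and 2461 CPM in WT and 1969, 1933 and 1655 CPM in null libraries, and fell by 0.62 (SE 0.10, edgeR adjusted p = 0.00417). *mt-Nd1* had 1587, 1931 and 1502 CPM in WT and 1138, 1243 and 1006 CPM in null libraries. *mt-Co3* had 2589, 2971 and 2371 CPM in WT and 1865, 2030.0 and 1613 CPM in null libraries. These 2 and *mt-Atp6*, of the membrane part of ATP synthase, fell by 0.58, 0.54 and 0.59 (edgeR adjusted p = 0.0102, 0.0128 and 0.0144). In all 4 the null libraries lay below the WT libraries. Each call ended without WT library B or without null library D, and those of *mt-Nd1*, *mt-Co3* and *mt-Atp6* also without null library A. In 1 fit over the libraries of all stages none of the 4 was called (edgeR adjusted p from 0.205 to 0.679). The mitochondrial sum of these cells was 1.46%, 1.78% and 1.37% of UMIs in WT and 1.09%, 1.18% and 0.927% in null libraries, while the nuclear sum was 2.44%, 2.47% and 2.55% in WT and 2.67%, 2.66% and 2.61% in null libraries. At E9.5 13 of 13 mitochondrially encoded members were lower in null cells of this type, as in other types such as Sclerotome and Mesenchyme. At E8.5 only 5 of 13 were lower in the YS mesothelium, with a median log2 fold change of 0.09.

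The other 4 calls were of complex I. *Ndufa5*, an accessory subunit, was at 168, 170, 173 and 169 CPM in WT and 204, 204, 205 and 195 CPM in null Sclerotome cells at E9.5. It rose by 0.26 on the log2 scale (SE 0.05, edgeR adjusted p = 0.0177) with no overlap between the groups, in all 10 other settings tried, and it lost the call without WT library A or null library C. *mt-Nd6* was at 37.6, 46.0, 48.4 and 40.4 CPM in WT and 20.6, 22.5, 30.2 and 18.3 CPM in null Posterior somitic tissues at E9.5, and fell by 0.92 (SE 0.17, edgeR adjusted p = 0.00571). That call ended without WT library C or null library A. *mt-Nd4l* in the Branchial arch neural crest at E9.5 had 146, 181, 155 and 143 CPM in WT and 126, 126, 112 and 112 CPM in null libraries, and fell by 0.38 (SE 0.08, edgeR adjusted p = 0.0333), a call that ended without WT library B or C or null library C or D, and with only libraries of more than 50 cells (edgeR adjusted p = 0.111). *mt-Nd5* in the Cranial mesoderm at E8.5 had 198 and 198 CPM in WT and 125 and 98.0 CPM in null libraries, the last from 48 UMIs, and fell by 0.80 (SE 0.14, edgeR adjusted p = 0.00450). DESeq2 gave an adjusted p of 0.797 and 1 edgeR fit over the libraries of all stages 0.163. Fits over all stages that left out 1 of its 4 libraries gave log2 fold changes from -1.02 to -0.71, with 1 library left in a group.

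**Figure D4:**
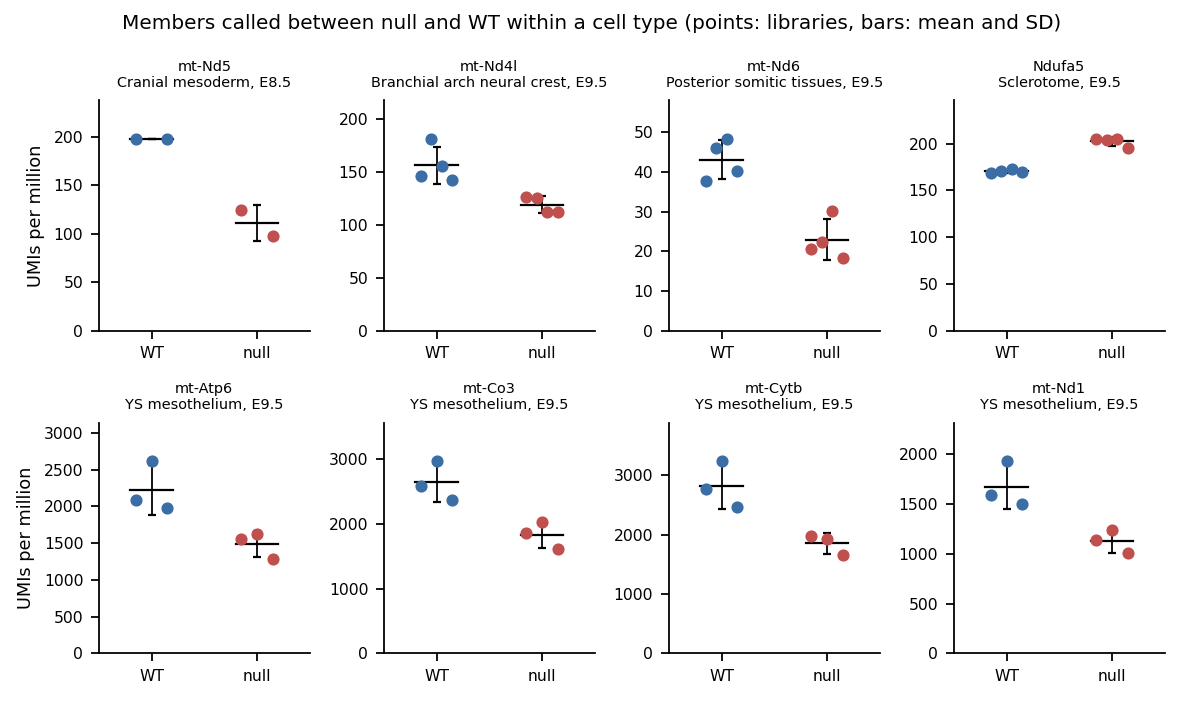
The 8 members called between null and WT within a cell type, in CPM, with a point per library and bars for the mean and SD. In each of the 8 panels the null and the WT points do not overlap. The panels were chosen by a test on these same values, so that separation adds no support to the calls. The null points are lower in 7 panels and higher for *Ndufa5* in the Sclerotome.

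Cell types differed in both sums, as described here without a test because the types were assigned from expression. Single labels with over 15 cells in 2 or more WT libraries were ranked, on all UMIs, which leaves out all 4 cardiomyocyte labels. At E7.5, of 11 types with enough WT cells, the Visceral endoderm had the highest nuclear sum at 2.97% ± 0.121 of UMIs and the highest mitochondrial sum at 2.85% ± 0.236 (SD, n = 2), and Blood progenitors had a nuclear sum of 2.79% with the lowest mitochondrial sum of 1.07%. At E8.5, of 36 types, EMP cells had the highest nuclear sum at 3.09% and the highest mitochondrial sum at 1.59%, and the Thyroid primordium had the lowest nuclear sum at 2.26%. With haemoglobin left out of the total, Erythroid cells came first at 3.54% and EMP cells next. At E9.5, of 40 types, EMP cells were again highest in the nuclear sum at 2.92% ± 0.0914 (SD, n = 4), and the Thyroid primordium, at 2.28%, had the highest mitochondrial sum at 1.70% ± 0.452 (SD, n = 3). Without haemoglobin Erythroid cells were again first, at 3.16%. The isoform levels that follow are means over libraries of both genotypes. *Cox4i2* was highest in Limb ectoderm at 161 CPM and Allantois at 150 CPM at E8.5, and *Ndufa4l2* in Mesenchyme at 79.5 CPM at E7.5. By CPM *Atp5g1* was highest in Blood progenitors at E7.5, at 1253 CPM and 54.8% of the *Atp5g* UMIs, and in EMP cells at E8.5 and E9.5. Its share at E8.5 was 51.8% in Erythroid and 45.6% in EMP cells.

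Cardiomyocytes carried a higher nuclear sum than the other cells of the same library. Their 4 labels were pooled, which left 41 to 124 cells per library at E8.5 and 20 to 58 at E9.5. All 7 cardiomyocyte markers were higher in them than in the other cells in every library, *Tnnt2* with 2649 to 3222 against 6.99 to 12.4 CPM at E8.5. The nuclear sum was 3.38% to 3.56% against 2.61% to 2.78% in the other cells at E8.5, higher in 4 of 4 libraries, and 2.74% to 3.45% against 2.43% to 2.61% at E9.5, higher in 8 of 8. The difference was 0.809 ± 0.154 percentage points (SD, n = 4) and 0.707 ± 0.246 (SD, n = 8), with the lowest, 0.268, in the E9.5 WT library C. The mitochondrial sum differed by 0.142 points, higher in 4 of 4 libraries, and by 0.0692 points, higher in 5 of 8. Of the 102 members with at least 50 UMIs in every library, which leaves out *Cox6a2*, 83 were higher in cardiomyocytes in every E8.5 library and 5 lower, beside 25.8% and 27.5% of all genes. At E9.5 60 were higher and 2 lower in every library, beside 13.4% and 16.1% of all genes.

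By complex, 31 of 36 nuclear subunits of complex I were higher in cardiomyocytes in every E8.5 library, 4 of 4 of complex II, 7 of 8 of complex III, 14 of 16 of complex IV and 15 of 15 of complex V, and none of these was lower in every library. At E9.5 the counts were 27 of 36, 0 of 4, 7 of 8, 12 of 16 and 14 of 15. The 10 assembly and related factors were split, with 4 higher and 4 lower at E8.5 and 0 higher and 2 lower at E9.5. Of the 13 mitochondrially encoded members 8 were higher and 1 lower in every E8.5 library, and 0 were either at E9.5. The median log2 ratio by complex was 0.30 to 0.49 for complexes I to V at E8.5 and 0.29 to 0.42 at E9.5, beside -0.02 and -0.04 over all genes.

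Among single members, the mean log2 ratio to the other cells ran in complex I from 0.04 for *Ndufv1*, which carries the NADH site, to 0.60 for *Ndufv3* at E8.5, and from -0.09 for *Ndufv1* to 0.53 for *Ndufb2* at E9.5. In complex II it ran from 0.33 for *Sdha* to 0.55 for *Sdhd*, a membrane anchor, at E8.5, and from 0.08 to 0.47 for the same genes at E9.5. In complex III the ends were *Uqcrc1* at 0.19 and *Uqcrh* at 0.52 at E8.5, and *Uqcrc1* at -0.04 and *Uqcr10* at 0.57 at E9.5. In complex V they were *Atp5g2* and *Atp5o*, at 0.18 and 0.73 at E8.5 and at 0.10 and 0.66 at E9.5. *Atp5o* has overlapping annotated genes of that name, so its counts are uncertain. Among the assembly and related factors *Ndufaf3* was highest at E8.5 with 0.61 and *Atp5s* at E9.5 with 0.62, and *Ndufaf2* was lowest with -0.52 and -0.46. The mitochondrially encoded members lay between -0.27 for *mt-Nd6* and 0.27 for *mt-Co1* at E8.5, and between -0.18 for *mt-Atp8* and 0.15 for *mt-Cytb* at E9.5.

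In complex IV the muscle isoforms stood far above the rest. *Cox7a1* had a mean log2 ratio of 4.69 at E8.5 and 3.70 at E9.5, and *Cox6b2* of -0.66 at E8.5. *Cox6a2* gave 13.8%, 16.3%, 20.3% and 10.9% of the *Cox6a* UMIs of cardiomyocytes in E8.5 WT A, WT B, null A and null B, against at most 0.0529% in the other cells pooled. At E9.5 its share was 2.53% to 16.6%, with a mean of 10.1% ± 5.67 (SD, n = 8). Among single labels of other cells, EMP cells had a *Cox6a2* share of 1.04% at E8.5, from 5 UMIs, and of 1.70% at E9.5, from 0.618% to 3.49% in 6 libraries and 41 UMIs, which overlapped the cardiomyocyte range. *Cox7a1* gave 5.47%, 5.56%, 6.18% and 3.86% of the *Cox7a* UMIs at E8.5 and 0.279% to 4.16% at E9.5, the lowest from 2 UMIs in WT library C, against 0.180% to 0.314% in the other cells pooled at both stages. Among single labels of other cells, its mean share at E8.5 was 1.30% in Hindbrain floor plate, up to 2.37%, and 1.23% in Midgut. At E9.5 EMP cells had 0.362% to 0.861% and Hindbrain floor plate 0.369% to 0.756%, within the cardiomyocyte range. Visceral endoderm had 3.02% at E7.5. *Cox8b* had 1 UMI in cardiomyocytes at E8.5 and 4 at E9.5. The WT and null shares overlapped for both genes at both stages. The labels differed among themselves at E8.5: Cardiomyocytes FHF 1 had a nuclear sum of 2.67% to 2.78% in 3 libraries and *Cox6a2* at 2.31 to 3.71 CPM, whereas FHF 2 had 3.89% and 150 CPM, SHF 1 had 2.88% and 18.8 CPM, and SHF 2 had 4.39% and 89.4 CPM, in 1 library each. At E9.5 FHF 1 alone had enough cells of a single label, 81 in 3 libraries, with a nuclear sum of 2.57% to 2.63% beside the 2.43% to 2.61% of cells other than cardiomyocytes, and with *Cox6a2* at 0 CPM.

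Erythroid cells differed from the other cells in a way that turned on haemoglobin. Haemoglobin made up 10.1% to 22.7% of their UMIs at E8.5 and 31.4% to 35.1% in the E9.5 WT libraries. E9.5 null libraries held 9, 2, 2 and 6 such cells and were not used. Over all UMIs the nuclear sum of erythroid cells was 2.74% to 3.35% against 2.59% to 2.70% at E8.5, higher in 4 of 4 libraries, and 2.07% to 2.18% against 2.44% to 2.53% at E9.5, lower in 4 of 4. With haemoglobin left out of the total it was 3.53% to 3.72% at E8.5 and 3.06% to 3.24% at E9.5, and the differences of 0.382 ± 0.208 and -0.355 ± 0.0337 points became 0.978 and 0.681 points. The sign at E9.5 thus depended on whether haemoglobin was in the total. Of the 102 members, 56 were higher and 18 lower in every E8.5 library over all UMIs, beside 12.3% and 72.4% of all genes, and 81 were higher without haemoglobin, beside 21.7%. At E9.5 19 were higher and 58 lower, beside 6.16% and 80.6% of all genes, and 76 were higher without haemoglobin, beside 16.5%.

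By complex, 21 of 36 nuclear subunits of complex I were higher and 6 lower in erythroid cells in every E8.5 library, 7 and 0 of 8 of complex III, 8 and 5 of 16 of complex IV and 11 and 2 of 15 of complex V. In complex II 1 of 4 subunits was higher and 2 were lower at E8.5, and 4 of 4 were lower at E9.5. The median log2 ratio of all genes was -0.78 at E8.5 and -1.28 at E9.5, and that of the nuclear members 0.20 and -0.22. With haemoglobin left out of the total every ratio was higher by 0.26 at E8.5 and 0.57 at E9.5, and the median of the nuclear members was 0.46 and 0.35, so the counts by complex and the ratios that follow hold for all UMIs and negative ratios smaller than these amounts turn. Among single members, *Ndufs3*, a core subunit of complex I, had a mean log2 ratio to the other cells of 0.81 at E8.5 and 1.02 at E9.5, and *Ndufs4*, an accessory subunit, of -0.50 and -0.89. *Uqcrq* of complex III had 0.72 and 0.53 and *Uqcrh* -0.05 and -0.42. *Sdhd* had 0.34 and *Sdhb* -0.47 at E8.5, and at E9.5 the subunits of complex II ran from -0.91 for *Sdhc* to -0.73 for *Sdhd*. In complex V *Atp5l* was highest at E8.5 with 0.92 and *Atp5e* at E9.5 with 0.25, and *Atp5g2* lowest with -0.67 and -0.86. Among the assembly and related factors *Ndufaf4* was highest with 0.57 and 0.16 and *Atp5sl* lowest with -0.85 and -1.78. Of the mitochondrially encoded members *mt-Nd6* was lowest with -1.63 and -0.92, and *mt-Co1* and *mt-Co3* were highest, with 0.43 at E8.5 and 0.42 at E9.5.

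In complex IV the mean log2 ratios of erythroid to other cells were highest for *Cox6b2*, at 1.94 at E8.5 and 2.88 at E9.5. *Cox4i2* was lowest, at -5.14 from 58 UMIs at E8.5, and had 5 UMIs in erythroid cells at E9.5, too few for a ratio. *Cox6b2* was at 24.6 to 78.0 CPM in erythroid cells against 9.07 to 14.1 CPM in the other cells at E8.5, and at 91.6 to 145 against 15.4 to 18.1 CPM at E9.5. It gave 7.13% ± 3.58 of the *Cox6b* UMIs of erythroid cells at E8.5 and 21.9% ± 3.62 in E9.5 WT libraries (SD, n = 4 each). Erythroid and other cells did not overlap at either stage. Its promoter is the one printed above without a match, next to that of *Cox6b1*. *Atp5g1* gave 51.8% of the *Atp5g* UMIs in erythroid against 36.9% in the other cells at E8.5, and 44.7% against 34.5% at E9.5.

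**Figure D5:**
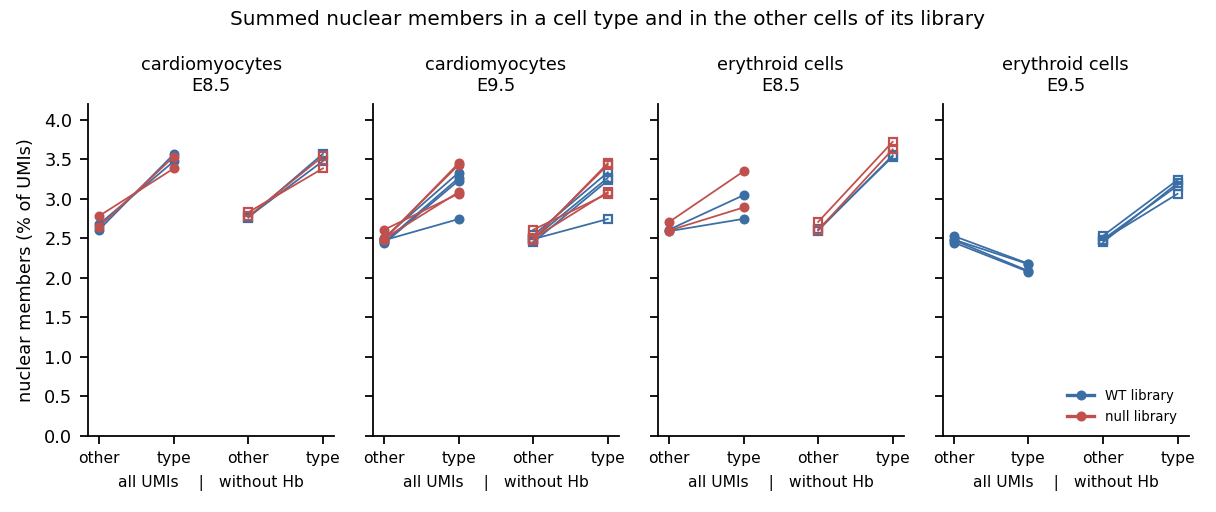
Summed level of the nuclear members, in percent of UMIs, in cardiomyocytes or erythroid cells and in the other cells of the same library, at E8.5 and E9.5. A line per library, coloured by genotype, joins the other cells to the cell type. Filled circles are over all UMIs and open squares are with haemoglobin left out of the total. The difference, cell type minus other cells, is between -0.389 and -0.311 points for erythroid cells at E9.5 over all UMIs. It is between 0.583 and 0.750 points without haemoglobin, while that of cardiomyocytes is above 0 in all 12 libraries either way.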

How the data were processed

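The authors aligned reads with Cell Ranger to mm10, per the submitters' processing notes, and deposited raw counts of UMIs as a gene by cell matrix, with no normalization. The deposited table of cells gave the mitochondrial percent per cell, a doublet call by scds and cell types transferred from an atlas by mutual nearest neighbours, with mitochondrial genes left out. Per the authors' methods, cells had 10000 to 100000 UMIs, 2000 to 10000 genes, under 5% mitochondrial and under 30% ribosomal UMIs. Reads shared by near-identical copies of subunit genes may have been left out or split between them in counting, which was not tested.

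Groups came from the sample labels, and libraries from the names of the cells, which match no embryo pool. 0 columns of per-sample values were left unmatched. Counts of singlets were summed per library, or per library and cell type with more than 15 cells, and tested with edgeR 4.0.16 in R 4.3.3 (quasi-likelihood, filterByExpr, TMM, robust), all 16 libraries in 1 fit for whole libraries and 1 fit per stage and type otherwise. Adjusted p-values (Benjamini-Hochberg) cover all genes of a fit, and a member was called under 0.05. DESeq2 1.42.0, scaling to total UMIs, no filter, leaving out cells, types or single libraries, and 1 fit over the stages were alternatives. Ratios between a type and the other cells used a pseudocount of 0.5 UMIs and genes with at least 50 UMIs in every library. In simulated data, genes drawn at random from those that passed the filter were changed, with 1 common spread given to all genes. With the E7.5 design the fit recovered 70% of genes changed by 1 on the log2 scale, and 4% and 12% of those changed by -0.5 and 0.5. For E9.5 it recovered 92% and 94%, and 46% and 48%.

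The members and lists were chosen with earlier results of these data known. Named were members called between null and WT, per complex and direction the called member with the largest change between WT stages, per complex the extremes in cardiomyocytes and erythroid cells, and the tissue isoforms; *Cox6b2* in whole libraries was chosen after its values were seen.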

Additional observations from a re-analysis of the deposited data

Results flagged for a closer look

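A library was set apart in a group of 4 when its gap to the nearest other, divided by the range of the group, was above Dixon's critical value for 4 samples. Of the 66 groups looked at, 6 held such a library, and chance alone marks about 1 in 20 groups. In the E9.5 null library C the nuclear sum was 2.61% of UMIs while the other 3 null libraries had 2.49% to 2.50%, its nuclear complex III sum was 0.256% while the others had 0.237% to 0.238%, and *Ndufa1* was at 132 CPM while the others had 109 to 112 CPM. In the E9.5 null library A the nuclear complex II sum was 0.0468%, under the 0.0485% to 0.0487% of the others. *Ndufaf2* was at 90.6 CPM in the E9.5 null library B and at 100.5 to 101 CPM in the others. *Ndufa5* in Sclerotome cells was at 195 CPM in the E9.5 null library D and at 204 to 205.0 CPM in the others, all above the 4 WT libraries.

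For *Ndufaf4* the test of the difference between 2 stages passed the threshold in the fit over all 16 libraries, but not in 14 of the 16 fits without 1 library, nor with total-UMI scaling, without a filter, over all rows of the table or without Erythroid cells. The E8.5 value minus the E7.5 value was -0.38 on the log2 scale (edgeR adjusted p = 0.0467), from 0.26 at E7.5 and -0.12 at E8.5.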

How the results depend on the processing

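Of the results that answer a comparison, 327 alternatives gave a value within 1 SD of the reported value or a count within 1.5 times, 67 moved it further and 2 reversed it. Among the 327 are differences between null and WT in summed levels whose sign turned without 1 library. Of the refits of single genes, 659 stayed on the same side of the threshold, called or not, 75 lost a call and 5 gained one. Members called between null and WT in whole libraries were 3 (E7.5) and 1 (E9.5) by DESeq2, and 2 and 1 without Erythroid cells, and leaving out 1 library gave 0 to 2 at the first, 0 at the second and 0 to 1 at the third stage. The interaction of E8.5 with E7.5 had 0 members called when scaled to all UMIs, without a filter, over all rows of the table and without Erythroid cells, and 0 to 1 when 1 library was left out. For the mean of the stages 8 were called by DESeq2, 2 without null-sorted cells lacking a tdTomato UMI, and 1 to 5 without 1 library. Between WT stages 17 were called at E8.5 over shared cell types, and 44 to 59 and 61 to 76 without 1 library.

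Within cell types, fits without a filter called 1, 13 and 38 members at the 3 stages. At E8.5 0 were called in 1 fit over the stages, by DESeq2, with mitochondrially encoded genes left out, with more than 50 cells per library, without null-sorted cells lacking a tdTomato UMI and with the fold rule, and 2 when scaled to all UMIs. At E9.5 3 were called in 1 fit over the stages, 1 with mitochondrially encoded genes left out, 1 with more than 50 cells per library and 0 with the fold rule. Leaving out 1 library gave 2 to 13 at E9.5, the lowest without WT B or null D and the highest without WT D. At E7.5 and E8.5 such fits left 1 library in a group and ran over the libraries of all stages, unlike the main fits, so their counts are not given. With haemoglobin left out of the total, the mitochondrial difference of cardiomyocytes at E8.5 was 0.102 points, and the erythroid differences were 0.978 and 0.356 points (nuclear and mitochondrial, E8.5) and 0.681 and 0.733 points (the same, E9.5). Without the E9.5 WT library C the mitochondrial difference of erythroid cells was -0.0320, and without other libraries up to 0.144. Apart from those stated, the cause was not tested.

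No paired analysis was possible because the names of the cells' libraries correspond to no numbered sample or embryo pool. The alternatives without Erythroid cells, without shared barcodes, with total-UMI scaling, with erythroid cells at E9.5 and for the mean of the stages were chosen after seeing the data. With 2 libraries a group, changes of 0.5 on the log2 scale were mostly missed in the simulated test. That test changed genes drawn from all genes that passed the filter, and recovery among the members alone was not simulated. Few calls at E7.5 and E8.5 do not show that members were alike.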
